A study of Rattus norvegicus with 24 samples.

Results

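Glutathione transferases join the tripeptide glutathione to electrophilic molecules. The family listed for study held 10 genes: Gsta1, Gsta4, Gstm1, Gstm2, Gstm4, Gstp1, Gstt1, Gstt2, Mgst1 and Mgst3. Members were the non-control probes whose gene name in the scanner files equalled one of these symbols, and among 30367 such probes 10 qualified, for 9 genes. No probe carried the name Gsta1. The probe that the array calls Gsta3 was designed on the transcript that RefSeq now lists as Gsta1, so it was added by that match, is called Gsta1 here, and is left out of every count over the 10 probes. All 11 probes were well above background and none was saturated on any of the 24 arrays.

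The series measured thyroid glands of RccHan Wistar rat pups on Agilent 1-colour arrays, with 1 gland RNA sample per array and 4 arrays in each of 6 groups. Sperm-positive dams received 3 mg of acrylamide per kg of body weight per day in drinking water from gestational day 6, and the same daily dose continued in the pups to postnatal day 35 ± 3. Control animals drank tap water. The groups were control and acrylamide females collected at night (10 PM), control and acrylamide males collected at night, and control and acrylamide females collected in the morning (10 AM). No male morning group was analysed here. The labels do not say whether the pups of a group came from separate litters, so each p-value covers only the spread among the samples at hand.

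Cytosolic glutathione transferases form classes named alpha, mu, pi and theta, while the microsomal enzymes sit in membranes and belong to a separate protein family. Acrylamide is cleared partly by conjugation with glutathione, which leads to mercapturic acids in urine, and partly by oxidation to the epoxide glycidamide, which is itself a target of conjugation. Many genes of the family are known targets of the transcription factor NRF2, which responds to electrophiles.

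Each probe is a stretch of 60 bases. The mu class is shown because its 3 genes lie close together on chromosome 2 and their probes gave different results. On the rn4 build, to which the scanner files refer, the Gstm1 probe lies at chr2:203575796-203575855, the Gstm2 probe crosses an intron at chr2:203551176-203552101 and the second of the Gstm4 probes lies at chr2:203606412-203606471, all on the minus strand. Capitals mark the longest stretch that each shares with an array probe of another gene of the family.
Gstm1: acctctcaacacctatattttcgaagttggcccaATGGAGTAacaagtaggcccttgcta
Gstm2: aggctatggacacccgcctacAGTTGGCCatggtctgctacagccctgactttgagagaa
Gstm4: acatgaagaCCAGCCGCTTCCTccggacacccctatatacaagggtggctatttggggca
The shared stretches were 8 bases for Gstm1, 8 for Gstm2 and 13 for Gstm4, the last with the probe of Gstm6l. Over all 11 probes the longest shared stretch ran from 7 to 13 bases. How well each probe matches the whole transcripts of the other genes was not tested.

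The other probes lie on rn4 at chr9:20051658-20051717 (Gsta1, minus strand), chr8:83182995-83183054 (Gsta4, plus), chr2:203606356-203606415 (the first Gstm4 probe, minus) and chr1:206628636-206628695 (Gstp1, minus). Those of the theta class lie at chr20:13606684-13606743 (Gstt1, minus) and chr20:13225289-13225348 (Gstt2, plus). The microsomal probes lie at chr4:175254945-175255004 (Mgst1, plus) and chr13:83038049-83038108 (Mgst3, minus).

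Levels below are log2 processed signal relative to each array's 75th percentile, so a level of 0 is the brightness that 25% of the probes exceed. Differences are acrylamide minus control on the same log2 scale, from limma fitted to 23416 probes kept as detectable, with p-values adjusted by Benjamini-Hochberg over all of them and called at 0.05. Levels of different probes cannot be set against each other, because probes differ in brightness at equal RNA. In whole glands, fewer cells of a type and less RNA per cell cannot be told apart.

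Some arrays stood apart. The Y-linked Ube1y1 probe was well above background on 7 of 8 arrays labelled male and on 1 of 16 labelled female. The exceptions were acrylamide male night replicate 4, at -6.44 against -4.16 to -3.13 on the other male arrays, and control female morning replicate 4, at -4.56 against -8.89 to -7.14 on the other female arrays. The thyroid gland label was checked against the mean level of 15 follicular cell markers such as thyroglobulin and thyroid peroxidase. It lay between 1.62 and 2.63 on 20 arrays, at 0.99 to 1.68 on 3 acrylamide female morning arrays and at -3.11 on acrylamide female morning replicate 1, where 11 of the 15 markers were still well above background. The mean of 3 parathyroid markers was -5.28 on that array, -2.55 on acrylamide female morning replicate 3, -1.74 on acrylamide male night replicate 4 and -0.72 on control female morning replicate 1, and above 0 on the others. Night and morning arrays sat on separate slides and differed in the saturation value of the scan. It was 779039 or 778978 for night arrays and 65497 or 65496 for morning arrays. Females and males of the night sat on separate slides, and on each of them controls filled one row and acrylamide samples the next, so treatment at night cannot be told apart from the row.

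**Figure D1:**
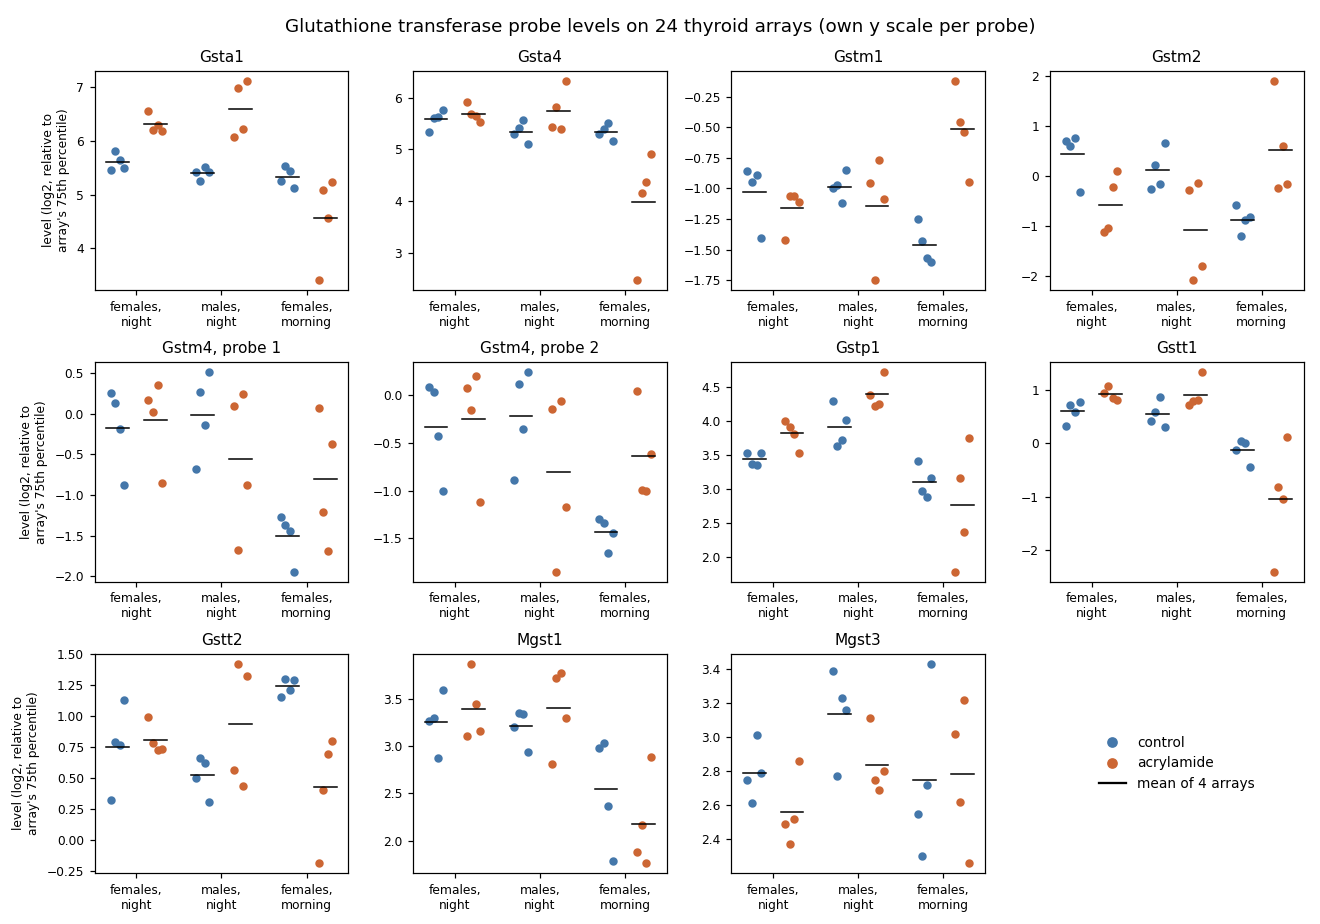
Level of each glutathione transferase probe on all 24 arrays (y axis, log2 relative to the array's 75th percentile, own scale per panel), by sex and time of collection (x axis), with controls in blue, acrylamide in orange and a line at the mean of 4 arrays. Gsta1 lies higher with acrylamide in both night pairs and Gsta4 lower in the morning pair, where acrylamide replicate 1 is the lowest point at 2.47.

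Between acrylamide and control animals no member probe passed the test at night and 2 passed in the morning. In morning females Gsta4 fell (log2 difference -1.37, SE 0.33) and Gstm1 rose (0.95, SE 0.20), each with 4 arrays a group. At night none of the 10 probes passed in females (adjusted p = 1 for each by limma) or in males (lowest adjusted p = 0.352 by limma). Probes of the whole array that passed made up 0% in night females, 0% in night males and 1.83% in morning females (0.389% higher and 1.44% lower), and at an unadjusted p under 0.05 the members numbered 1, 1 and 6 of 10 against 1.77%, 13.7% and 23.4% of all probes.

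The directions of the members were mixed in each pair of groups. Over the 10 probes 7 differences were positive in night females, 5 in night males and 5 in morning females, with medians of 0.09, 0.01 and -0.15 beside 0.024, -0.011 and -0.102 over all probes. Scaling arrays by their median moved the night male differences of all probes alike, to a median of 0.16, and that of Gstm1 from -0.16 to 0.01. In the morning the differences ran from -1.37 for Gsta4 to 1.39 for Gstm2, wider on both sides than in night females (-1.01 to 0.37).

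**Figure D2:**
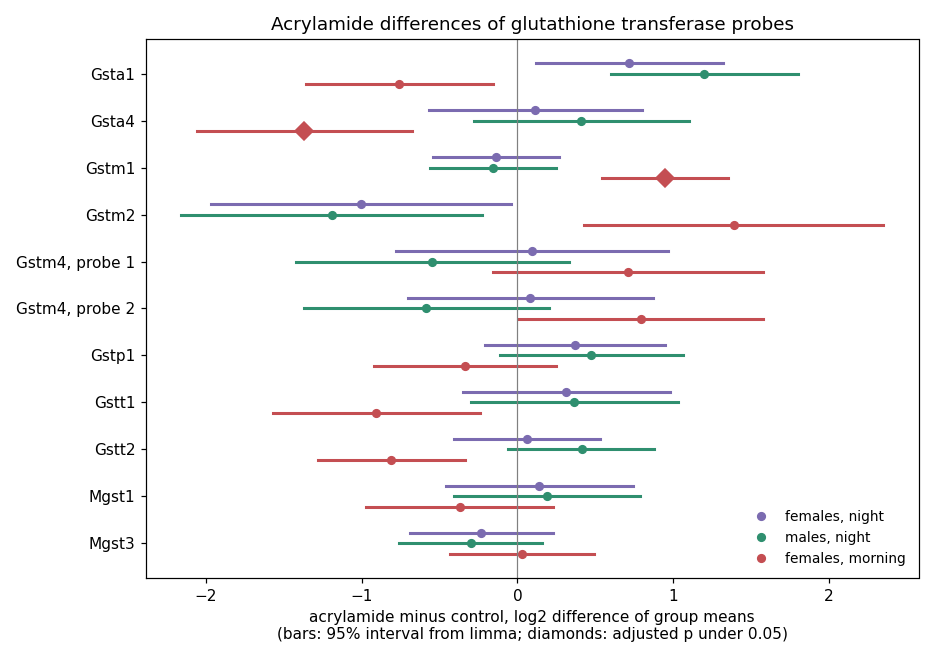
Acrylamide minus control difference of each probe (x axis, log2; bars are 95% intervals from limma) for night females, night males and morning females, with diamonds for adjusted p under 0.05. The called probes are Gsta4 at -1.37 and Gstm1 at 0.95 in morning females. All probes but those of Gstm4 lie on opposite sides of 0 in morning and night females.

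The alpha class holds Gsta1, a conjugating enzyme abundant in liver, and Gsta4, which is known for conjugating 4-hydroxynonenal, a product of lipid peroxidation. The Gsta4 level in morning females was 5.30, 5.40, 5.52 and 5.16 on the control arrays and 2.47, 4.15, 4.36 and 4.92 on the acrylamide arrays. Every acrylamide array lay below every control array, and replicate 1 lay far below the rest. The group means were 5.35 ± 0.15 and 3.98 ± 1.05 (SD, n = 4), a level at 0.387 of the control (95% interval of the log2 difference -2.06 to -0.68, limma adjusted p = 0.0441).

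The Gsta4 call was near the threshold, and it held in 9 of 24 fits that each left out 1 array (limma adjusted p from 0.00479 to 0.132). Without acrylamide female morning replicate 1, the array that was low in follicular markers, the difference was -0.87 with an adjusted p of 0.101 by limma. Leaving out that array together with acrylamide male night replicate 4 gave an adjusted p of 0.0552 by limma, and leaving out the 4 arrays with a parathyroid mean below 0 gave -0.82 and 0.0893. Leaving out both arrays that stood apart in the Y-linked probe gave -1.43 and an adjusted p of 0.0576 by limma. With the follicular marker mean of each array as a covariate it was -0.55, with an adjusted p of 0.484 by limma. Of the 15 follicular markers themselves 0 were called higher and 2 lower in this pair, with a median of -1.71. Slide 3 of the morning held 3 control and 2 acrylamide arrays, and slide 4 held 1 and 2. The control array on slide 4 was replicate 4, which stood apart in the Y-linked probe, and its acrylamide arrays were replicates 1 and 4. The Gsta4 difference was -1.15 on slide 3 and -1.46 on slide 4. With the morning slide as a term it was -1.26 (limma adjusted p = 0.0838). It was -1.34 with median scaling and -1.31 with array weights (limma adjusted p = 0.086 and 0.0572).

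At night Gsta4 passed in neither sex. In females it was 5.34, 5.60, 5.62 and 5.76 on control arrays and 5.92, 5.68, 5.64 and 5.54 on acrylamide arrays, and the groups overlapped. In males it was 5.29, 5.41, 5.56 and 5.10 against 5.44, 5.82, 5.40 and 6.33, with replicate 4 of the acrylamide group highest. The differences were 0.12 and 0.41 (limma adjusted p = 1 and 0.551).

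Gsta1 was higher with acrylamide in both night pairs, without reaching the threshold. In night females it was 5.45, 5.81, 5.64 and 5.50 on control arrays and 6.56, 6.21, 6.30 and 6.19 on acrylamide arrays. In night males it was 5.42, 5.26, 5.52 and 5.42 on control arrays and 6.08, 6.99, 6.22 and 7.12 on acrylamide arrays. In neither sex did the groups overlap, and acrylamide male replicates 2 and 4 lay highest of all 24 arrays. Among all probes 0.487% lay above the controls without overlap in both night pairs.

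The night differences of Gsta1 were 0.72 in females (SE 0.29, 95% interval 0.12 to 1.32, 1.64 times the control level, limma adjusted p = 1) and 1.20 in males (SE 0.29, interval 0.60 to 1.80, 2.29 times, adjusted p = 0.352). Leaving out single arrays kept the male difference between 1.02 and 1.37. The other alternatives, the follicular covariate among them, gave 0.87 to 1.37 in males (limma adjusted p from 0.0902 to 0.838). In females they gave 0.67 to 0.73.

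Markers of tissue content differed in the same night pairs. The mean of 4 pituitary markers was -5.44 to -3.58 on control and -5.45 to 0.64 on acrylamide arrays in females, and -5.28 to -3.52 against -1.67 to 3.00 in males, where the groups did not overlap. The follicular marker mean was 1.90 to 2.15 against 1.99 to 2.41 in females and 1.75 to 1.99 against 2.13 to 2.63 in males, again without overlap in males. None of the 4 pituitary and 15 follicular markers passed in either pair by limma, with median differences of 2.44 and 4.94 for the pituitary list and 0.07 and 0.43 for the follicular list. Skeletal muscle markers had medians of -1.33 in females and -1.76 in males, and T cell and thymocyte markers 1.51 and 0.9, with 0 called. By deviations from group means, Pearson's r of Gsta1 was 0.849 with the follicular mean and -0.409 with the muscle mean. It was 0.097 with the T cell mean and -0.015 with the pituitary mean. The part of these tissues in the Gsta1 night differences was not tested.

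The morning females went the other way for Gsta1. There it was 5.25, 5.53, 5.44 and 5.12 on control arrays and 3.41, 5.08, 4.57 and 5.23 on acrylamide arrays, which overlapped. The difference of -0.76 (SE 0.29, limma adjusted p = 0.128) moved to -0.38 without acrylamide replicate 1 and to -0.11 with the follicular marker covariate. Without acrylamide replicate 4 it was -0.98 and passed (adjusted p = 0.0432).

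In the mu class Gstm1, a major conjugating enzyme of rat liver, was the member that rose in morning females. Its level was -1.25, -1.43, -1.57 and -1.60 on control arrays and -0.12, -0.46, -0.54 and -0.95 on acrylamide arrays. All 4 acrylamide arrays lay above all 4 control arrays. The means were -1.47 ± 0.16 and -0.52 ± 0.34 (SD, n = 4), and the difference of 0.95 corresponded to 1.93 times the control level (95% interval 0.54 to 1.35, limma adjusted p = 0.0275).

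The Gstm1 call held in 21 of 24 fits that each left out 1 array, with differences from 0.81 to 1.09. It was lost without acrylamide replicate 1 of that group (0.81, limma adjusted p = 0.102), without the 4 arrays with a parathyroid mean below 0 (0.83, adjusted p = 0.109), without both arrays that stood apart in the Y-linked probe (0.90, adjusted p = 0.0546) and with the follicular covariate (0.70, adjusted p = 0.442). It was also lost with array weights (0.93, limma adjusted p = 0.0591). Fitted to only the 2 groups compared, the adjusted p was 0.376 by limma. The difference was 0.92 on slide 3 and 1.06 on slide 4, where the only control array was replicate 4.

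Other tissue markers differed in the morning pair as well. Beside the follicular list, the median difference was 2.62 over 9 oesophageal epithelium markers (8 positive, 1 called higher), 1.15 over 9 cartilage markers, -1.76 over 5 C cell markers (0 positive) and -2.14 over 3 parathyroid markers, with no call by limma in the last 3 lists. Their part in the Gstm1 and Gsta4 differences was not tested. At night the Gstm1 levels of both groups overlapped in each sex, from -1.42 to -0.86 in females and from -1.75 to -0.77 in males, and the differences were -0.14 and -0.16.

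Gstm2, whose human counterpart is called the muscle form, showed the widest range of the family over the 24 arrays, from -2.08 to 1.91. In morning females it was -0.58, -1.19, -0.88 and -0.82 on control arrays and 1.91, -0.24, 0.61 and -0.16 on acrylamide arrays. The groups did not overlap, and replicate 1 of the acrylamide group was highest. The difference was 1.39 (SE 0.46, limma adjusted p = 0.095), and it was 0.93 without that replicate and 0.57 with the follicular covariate. Without acrylamide replicate 4 it was 1.62 and passed (limma adjusted p = 0.0489).

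At night Gstm2 lay lower with acrylamide in both sexes, again short of the threshold. In females it was 0.70, 0.61, 0.76 and -0.32 on control arrays and -1.12, -1.04, -0.21 and 0.10 on acrylamide arrays. In males it was -0.25, 0.22, -0.15 and 0.66 on control arrays and -0.28, -2.08, -0.14 and -1.79 on acrylamide arrays. The groups overlapped in both sexes, and in males replicates 2 and 4 alone lay below every control array by more than 1 log2 unit. The differences were -1.01 (SE 0.46, limma adjusted p = 1) and -1.19 (SE 0.46, adjusted p = 0.352), and the latter was -0.43 when arrays were weighted by their overall agreement with their group.

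Skeletal muscle markers moved with Gstm2 at night. Their mean level over the 11 genes measured was 6.77 to 7.41 in control and 3.92 to 7.10 in acrylamide females, and 6.81 to 7.97 in control and 1.78 to 7.51 in acrylamide males. The lowest value belonged to acrylamide male replicate 2, which also had the lowest Gstm2 level. No muscle marker passed the test in either pair, and the part of muscle RNA in the Gstm2 differences was not tested.

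Gstm4 was read by probes on neighbouring stretches of the transcript, one of which carries another name in the older of the array annotations. In morning females the first was -1.27, -1.37, -1.44 and -1.94 on control arrays and 0.07, -1.21, -1.69 and -0.37 on acrylamide arrays, with overlap. The second was -1.30, -1.34, -1.65 and -1.45 against 0.04, -0.99, -1.0 and -0.62, without overlap. Their differences were 0.71 (SE 0.42) and 0.79 (SE 0.38), with adjusted p = 0.305 and 0.21 by limma. At night they were 0.09 and 0.08 in females and -0.55 and -0.59 in males, where replicates 2 and 4 of the acrylamide group were again lowest.

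Gstp1, the pi-class enzyme best known as a marker of preneoplastic foci in rat liver, passed in no pair. In night females it was 3.53, 3.37, 3.36 and 3.53 on control arrays and 4.01, 3.92, 3.81 and 3.54 on acrylamide arrays, so that the groups touched without overlapping. In night males the acrylamide arrays (4.22 to 4.72) overlapped the controls (3.63 to 4.30) at 1 control array. The differences were 0.37 (SE 0.28) and 0.47 (SE 0.28), with adjusted p = 1 and 0.42 by limma.

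In morning females Gstp1 was more scattered with acrylamide, at 1.79, 3.17, 2.37 and 3.75 against 3.41, 2.97, 2.88 and 3.16 in controls. The difference was -0.34 (adjusted p = 0.468 by limma) and turned to 0.20 with the follicular covariate and to 0.45 without the 4 arrays with a parathyroid mean below 0.

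The theta class takes small halogenated and other reactive substrates, and both of its members were lower with acrylamide in the morning without passing the test. Gstt1 was -0.13, 0.04, 0.01 and -0.44 on control arrays and -2.40, -0.82, -1.05 and 0.12 on acrylamide arrays. Replicate 4 of the acrylamide group lay above all controls while the other 3 lay below them. The difference of -0.91 (SE 0.32, limma adjusted p = 0.11) shrank to -0.45 without replicate 1 and to -0.15 with the follicular covariate, and it was -1.29 with an adjusted p of 0.00798 by limma without replicate 4.

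Gstt2 in morning females was 1.15, 1.30, 1.21 and 1.29 on control arrays and -0.19, 0.40, 0.69 and 0.80 on acrylamide arrays. No acrylamide array reached the controls, which lay within 0.15 of each other. The difference was -0.81 (SE 0.23, limma adjusted p = 0.0608), just short of the threshold. It passed with quantile normalization (adjusted p = 0.0391 by limma), with probes detected on all 24 arrays (0.0481) and without acrylamide replicate 3 (-0.90, 0.0309) or 4 (-0.93, 0.0209). It was -0.60 without replicate 1 (adjusted p = 0.254 by limma) and -0.44 with the follicular covariate (0.699). It was -0.67 on slide 3 and -0.98 on slide 4.

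At night neither theta member passed. Gstt1 was 0.33 to 0.78 in control and 0.81 to 1.08 in acrylamide females, groups that did not overlap (difference 0.31, SE 0.32), and 0.31 to 0.87 against 0.71 to 1.33 in males (0.37). Gstt2 was 0.32 to 1.13 against 0.72 to 0.99 in females (0.06) and 0.30 to 0.66 against 0.43 to 1.42 in males (0.41). In males its acrylamide replicates 2 and 4, at 1.42 and 1.32, lay apart from the other two, at 0.56 and 0.43.

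The microsomal enzymes Mgst1, which conjugates and reduces lipid peroxides in membranes, and Mgst3, which also has peroxidase activity, passed in no acrylamide pair, with differences of at most 0.37 in size. Mgst1 was between 2.81 and 3.88 on all 16 night arrays and differed by 0.14 in females and 0.19 in males. In the morning it was 2.98, 3.04, 2.37 and 1.78 on control and 1.88, 2.17, 1.76 and 2.89 on acrylamide arrays, a difference of -0.37 (limma adjusted p = 0.44) that was -0.84 on slide 3 and 0.61 on slide 4. Mgst3 ranged from 2.26 to 3.43 over all arrays, with differences of -0.23, -0.30 and 0.03. The groups of both genes overlapped in each pair.

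Counted without a fit, 2 of the 10 probes lay above the controls without overlap in night females (Gstp1 and Gstt1) and 0 below, beside 3.64% and 1.69% of all probes (5.33% in either direction). In night males none of the 10 did, beside 4.34%. In morning females 3 lay above (Gstm1, Gstm2 and the second Gstm4 probe) and 2 below (Gsta4 and Gstt2), beside 1.92% and 6.55% of all probes (8.47% in either direction).

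Whether the acrylamide difference depended on time or sex was tested directly. Night minus morning in females gave 1.48 (SE 0.41) for Gsta1, 1.48 (SE 0.47) for Gsta4, -1.08 (SE 0.28) for Gstm1 and -2.40 (SE 0.65) for Gstm2, each with an adjusted p of 0.234 by limma. None of the 10 probes passed, beside 0% of all probes, and 5 of 10 had an unadjusted p under 0.05 beside 15.8%. Without acrylamide female morning replicate 4, 3 of the 10 passed. The share of all probes called in that fit is not given here, so this count does not set the members apart. Time is also confounded with slide and with the saturation value of the scan here.

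Males minus females at night gave no called member either, with every adjusted p at 0.995 or above by limma beside 0% of all probes, and 0 of 10 with an unadjusted p under 0.05 beside 2.25%. The mean of the 3 acrylamide differences passed for none of the 10 (lowest adjusted p = 0.757 by limma, 0 at an unadjusted p under 0.05 beside 6.67%, 0.00427% of all probes called). For Gsta1 that mean was 0.38 with an adjusted p of 0.728.

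Control females differed between night and morning at 4 of the 10 probes, all higher at night, beside 47.6% of all probes called, 21% higher and 26.6% lower. At an unadjusted p under 0.05 it was 7 of 10, beside 53.4%, and 5 of 10 did not overlap, beside 56.5%. Gstm2 was higher by 1.30 (limma adjusted p = 0.025), the Gstm4 probes by 1.34 and 1.10 (0.0121 and 0.0204) and Mgst1 by 0.72 (0.0462). The Mgst1 call held in 12 of 24 fits that each left out 1 array, and it was lost with slide as a random block (adjusted p = 0.0659 by limma) and without control female morning replicate 4, the array with the Y-linked signal (0.46, adjusted p = 0.197). The other calls held in 20 of 24 such fits for Gstm2 and in 24 and 21 for the Gstm4 probes. Gstm4 did not overlap between the times, at -0.87 to 0.25 and -1.01 to 0.08 at night against -1.94 to -1.27 and -1.65 to -1.30 in the morning. Gstt2 went the other way, at 0.32, 0.79, 0.76 and 1.13 at night against 1.15 to 1.30 in the morning (-0.49, adjusted p = 0.0809 by limma). The median difference was 0.58 over the members and 0.033 over all probes, the latter 0.299 when arrays were scaled by their median. The count of 4 was 1 without control female night replicate 1 or 2 and 2 without control female morning replicate 3. Tissue markers differed between the times as well. The median difference was 0.97 over 11 skeletal muscle markers (11 positive, 0 called) and -1.89 over 9 cartilage markers (5 called lower). It was 2.08 over 3 parathyroid markers (1 called higher) and -1.73 over 10 T cell and thymocyte markers (2 called lower). Their part in the member differences was not tested. Time cannot be told apart from slide and from the saturation value of the scan in these samples.

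Between the sexes, night controls differed at none of the 10 probes (adjusted p = 1 for each by limma, 0 at an unadjusted p under 0.05, beside 0.00854% of all probes called and 1.61% unadjusted). Gstp1 was 3.63 to 4.30 in males and 3.36 to 3.53 in females, higher by 0.47 and the 1 member without overlap, beside 1.98% of all probes higher and 3.71% in either direction.

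Within groups, several members moved with the follicular markers of the sample. Deviations from the group means on 24 arrays were correlated for 11 probes and 14 marker lists, 154 relations in all. The p-values came from 100000 permutations within groups with Benjamini-Hochberg adjustment. Of the relations 9 passed by both Pearson's r and Spearman's rho. How many other probes on the array pass the same test was not computed, so this count does not set the members apart. With the follicular marker mean, Gsta4 had r = 0.92 (permutation p = 3e-05, adjusted 0.00231) and rho = 0.91 (p = 2e-05, adjusted 0.00308). Over the 16 night arrays r was 0.87 and over the 8 morning arrays 0.98. Leaving out the arrays whose deviations in follicular mean lay farthest from the median deviation, acrylamide female morning replicates 1 and 4, gave 0.69.

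Gsta1 (r = 0.85, permutation p = 2e-05, adjusted 0.00231, rho = 0.82, p = 0.00029, adjusted 0.0112, r = 0.63 without the 2 arrays) and Gstt1 (r = 0.89, permutation p = 5e-05, adjusted 0.00257, rho = 0.80, p = 5e-05, adjusted 0.00385, r = 0.52 without them) went with the same list. So did Gstt2, with r = 0.62 (permutation p = 0.00092, adjusted 0.0177) and rho = 0.70 (p = 0.00142, adjusted 0.0219), and r = 0.42 without those arrays. Gstm2 ran against it, with r = -0.65 (permutation p = 0.00033, adjusted 0.00726) and rho = -0.76 (p = 0.0006, adjusted 0.0115), and r = -0.52 without them. Each of these 5 relations kept its sign within the night and within the morning arrays. For all values without 2 arrays, above and below, the group means were not recomputed. The arrays left out still entered the deviations of those kept, so these values do not remove their influence.

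**Figure D3:**
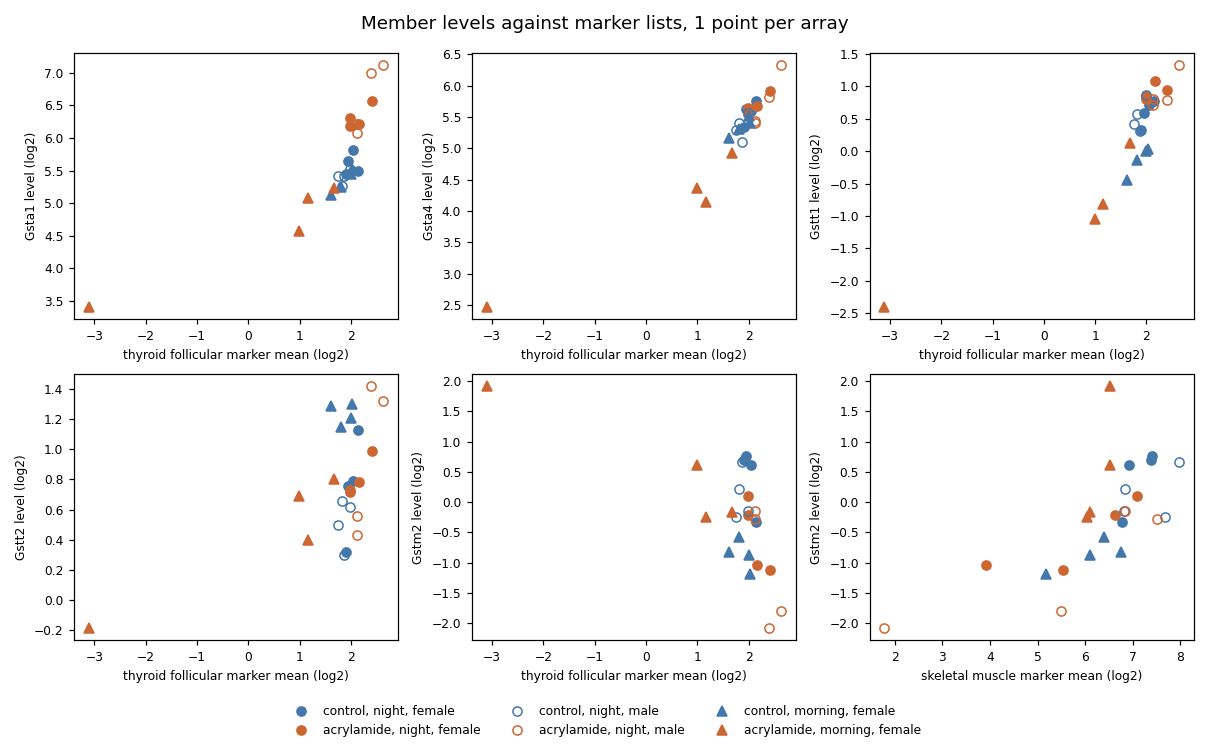
Level of Gsta1, Gsta4, Gstt1, Gstt2 and Gstm2 (y axes, log2) against the mean of thyroid follicular markers, and of Gstm2 against skeletal muscle markers (x axes, log2), 1 point per array, circles for night and triangles for morning, open for males. Acrylamide female morning replicate 1 lies apart at a follicular mean of -3.11 with the lowest Gsta1, Gsta4, Gstt1 and Gstt2 levels and the highest Gstm2 level.

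Other marker lists went with other members. Gstm2 followed skeletal muscle markers (r = 0.67, permutation p = 0.00015, adjusted 0.00554, rho = 0.72, p = 0.00049, adjusted 0.0115, and 0.65 without the 2 farthest arrays). Mgst1 followed fat markers (r = 0.72, permutation p = 0.00023, adjusted 0.0059, rho = 0.78, p = 0.00014, adjusted 0.00719, and 0.72 without 2 arrays) while Mgst3 ran against them (r = -0.57, permutation p = 0.00018, adjusted 0.00554, rho = -0.64, p = 0.00044, adjusted 0.0115, and -0.52). Gstp1 ran against fibroblast markers (r = -0.74, permutation p = 0.00255, adjusted 0.0436, rho = -0.80, p = 0.00058, adjusted 0.0115, and -0.71). The part of these cell types in the acrylamide differences was not tested beyond the follicular covariate.

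Members of different classes also moved with and against each other from array to array. Of 55 pairs of probes, 15 passed by both r and rho after adjustment, 8 positive and 7 negative. The positive ones include the pair of Gstm4 probes, which read the same gene. How many pairs of other probes on the array pass the same test was not computed, so this count does not set the members apart. Gsta4 went with Gstt1 (r = 0.94, permutation p = 9e-05, adjusted 0.00099, rho = 0.81, p = 9e-05, adjusted 0.00099, and 0.78 without the 2 farthest arrays) and with Gsta1 (r = 0.89, permutation p = 0.00113, adjusted 0.00691, rho = 0.77, p = 0.00127, adjusted 0.00776, and 0.72). Gstm1 went with Gstm2 (r = 0.78, permutation p = 0.00035, adjusted 0.00275, rho = 0.75, p = 0.00047, adjusted 0.00431, and 0.73).

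The negative pairs joined Gstm2 to Gsta1, Gsta4, Gstt1 and Gstt2. They also joined Gstm1 and the second Gstm4 probe to Gstt2, and Mgst1 to Mgst3. Gstm1 ran against Gstt2 with r = -0.83 (permutation p = 3e-05, adjusted 0.00055) and rho = -0.84 (p = 1e-05, the smallest that 100000 permutations give, adjusted 0.00055), and with -0.79 without 2 arrays. Mgst1 ran against Mgst3 with r = -0.83 (permutation p = 3e-05, adjusted 0.00055) and rho = -0.81 (p = 4e-05, adjusted 0.000733), with -0.73 without 2 arrays, and with -0.62 at night and -0.96 in the morning. The Gstm4 probes moved together (r = 0.94, permutation p = 2e-05, adjusted 0.00055, rho = 0.94, p = 2e-05, adjusted 0.00055, and 0.95).

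**Figure D4:**
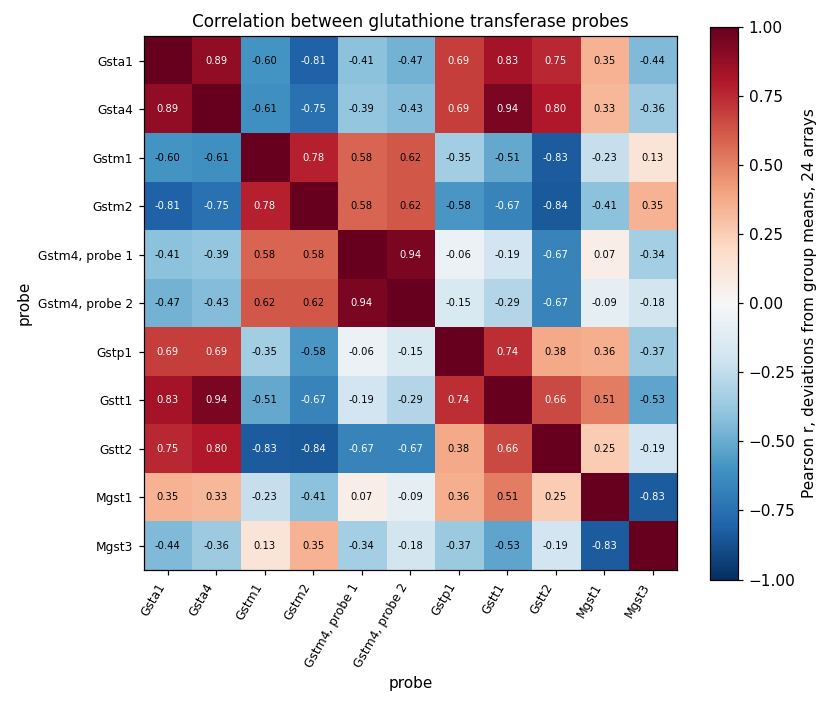
Pearson correlation between the deviations of each pair of glutathione transferase probes from their group means over 24 arrays (colour scale and printed values, probes on both axes). Gsta1, Gsta4, Gstt1 and Gstt2 form a positive block that is negative against Gstm1 and Gstm2, and Mgst1 and Mgst3 stand at -0.83.

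By the same deviations over 24 arrays, the other genes with patterns most similar to Gsta4 were Abca3 (r = 0.97), Slc16a11 (0.969) and Baiap2l1 (0.965). For Gsta1 they were Gsta3 (0.956, RefSeq name of a probe that the array calls Gsta5), Gnptg (0.95) and Fuca1 (0.948). For Gstt1 they were Muc1 (0.968), Epcam (0.965) and Tmprss2 (0.962), which are epithelial genes, and for Gstt2 they were Triqk (0.929), Faf2 (0.915) and Pkp2 (0.911). Gstm2 was nearest to Zcchc24 (0.933), P2rx6 (0.917) and Fbln2 (0.909), while for Gstm1 the nearest genes, Atp6v1g2 (0.801), Spring1 (0.796) and Slc43a1 (0.792), were less alike. Gstm4 was nearest to Sp2 (0.873), Arhgef7 (0.87) and Ccnt2 (0.862), and Gstp1 to Trh (0.878), Stat2 (0.863) and Tgif2 (0.86). Mgst1 was nearest to Vps28 (0.934), Bet1l (0.918) and Pcbd1 (0.904), and Mgst3 to Atp5pf (0.935), Dffa (0.911) and Mllt11 (0.909).

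Other glutathione transferases on the array showed no called gene in any acrylamide pair. Of 22 listed genes 20 were tested, and 11, 9 and 11 had a positive difference in night females, night males and morning females, with medians of 0.08, -0.13 and 0.02. The highest positive difference in both night pairs was that of Gsta3, an alpha-class relative of Gsta1, at 0.60 in females and 1.13 in males (SE 0.35, limma adjusted p = 0.352). This is the brighter of its probes, and the other gave 0.48 and 1.07 (SE 0.94). Names here follow RefSeq. The array itself calls these Gsta3 probes Gsta5, and it calls the Gsta5 and Gsta6 probes LOC494499 and LOC501110. The probe that the array calls Gsta3 is the Gsta1 probe above. In night males Gsta2 was at -2.11 (SE 1.28) and Ptges, a prostaglandin E synthase of the microsomal family, at -1.12. In morning females the mu-class genes Gstm6 and Gstm7 were at 0.95 (limma adjusted p = 0.0795) and 0.86, and the alpha-class genes Gsta5 and Gsta6 at -0.94 and -0.85. The Gsta3 probes gave -0.84 (SE 0.35) and -2.38 (SE 0.94, limma adjusted p = 0.14) there.

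Genes that make glutathione or process its conjugates were mostly uncalled as well. Of 25 tested, 1 passed, in morning females, beside 1.83% of all probes. Acy3, an acylase that acts on mercapturic acids, was lower there (-0.92, SE 0.24, limma adjusted p = 0.0497). That call lay just under the threshold. Whether it held without single arrays or with the follicular covariate in this pair was not tested. The dipeptidases Dpep1 and Dpep2, which cleave cysteinylglycine conjugates, were at -1.55 and -1.44 there (adjusted p = 0.0578 and 0.0614 by limma). In night males Gclc, the catalytic subunit of the enzyme that limits glutathione synthesis, was at 0.80 (SE 0.22, limma adjusted p = 0.352), and in night females the cystine transporter Slc7a11 was at 1.04. The list medians were 0.08, 0.12 and -0.11 in night females, night males and morning females.

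The 4 genes of acrylamide oxidation had no called member. Cyp2e1, the enzyme that forms glycidamide, was at -0.64 in night females, -1.92 in night males (SE 0.51, limma adjusted p = 0.352) and 1.28 in morning females. The epoxide hydrolase Ephx1 was at 0.23, -1.04 and -0.25.

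NRF2 regulators and targets had no called gene among 19 tested. In night females 16 differences were positive with a median of 0.24, and in night males 13 with a median of 0.41, beside medians of 0.024 and -0.011 over all probes. In morning females 9 were positive with a median of -0.11. The largest in night males were Ptgr1 at 1.60 (SE 0.39) and Akr1b8 at 1.59 (SE 0.40), both reductases of reactive carbonyls (limma adjusted p = 0.352 for each), and in morning females Aldh3a1, an aldehyde dehydrogenase, at 2.53 (SE 0.73, adjusted p = 0.0661). The mean level of the oesophageal epithelium markers was -2.28 to -1.30 on control and -2.31 to 2.18 on acrylamide morning arrays, and its part in the Aldh3a1 value was not tested.

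**Figure D5:**
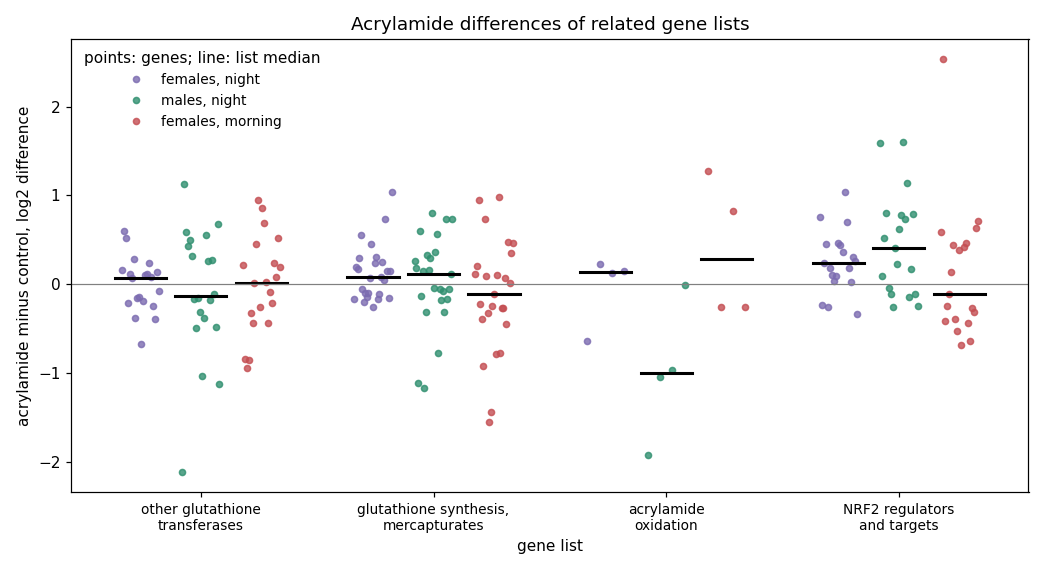
Acrylamide minus control difference (y axis, log2) of single genes in 4 lists (x axis), with a line at each list's median, for night females, night males and morning females. The NRF2 list has medians of 0.24 and 0.41 at night and -0.11 in the morning, and the glutathione transferases outside the members have medians between -0.13 and 0.08.

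Promoters of the members were searched for the NRF2 core motif TGACNNNGC on both strands of the 250 bases before the start, with sequences from RefSeq on the GRCr8 build. Among the 8 members with an entry 1, Gstp1, held a match, as did 10.1% of 33469 promoters. Gstt1 and Gstt2 have no entry in that table.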

How the data were processed

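Thyroid RNA of 24 samples was hybridised to 1-colour arrays. Per the file headers, the deposited intensity values are processed signals of Agilent Feature Extraction 10.1.1.1, with background and spatial trend removed within the array. The deposited series table holds log2 values, which follow the log2 processed signal less 1 constant per array and are centred on a median of 0. They served as an alternative. Each array's 75th percentile was subtracted from log2 signals, spots of a probe were averaged, and 23416 of 30367 probes well above background on at least 3 of 4 arrays of a group were kept. Group means were fitted with limma 3.58.1 in R 4.3.3 over all 24 arrays (18 residual degrees of freedom). Scaling, background correction, filters, slide and replicate blocks, array weights, a follicular covariate and single arrays left out were tried as alternatives. The code was tested on simulated data.

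The members and gene lists were chosen with earlier results of these data known. Of list genes, those called or the 2 largest and 2 smallest differences could be named. Aldh3a1 was set beside the oesophageal markers after its value was seen. Same-numbered replicates were not paired (correlation of deviations -0.237 to 0.356, own number best in 2 of 12 cases). The number of arrays limits the precision.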

Additional observations from a re-analysis of the deposited data

Results flagged for a closer look

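Each of the 11 probes has 6 groups of 4 arrays. Among all these groups, 4 had an array farther from the others than Dixon's 95% limit allows. Chance passes that limit in about 1 in 20 groups. Gstm1 was -1.41 on control female night replicate 4 (-0.95 to -0.86 on the others) and -1.42 on acrylamide female night replicate 1 (-1.11 to -1.06). Gstm2 was -0.32 on control female night replicate 4 (0.61 to 0.76 on the others). Gstt1 was 1.33 on acrylamide male night replicate 4 (0.71 to 0.81 on the others), the male array on which the Y-linked probe was not well above background.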

How the results depend on the processing

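The 2 called member probes in morning females became 1 with median scaling, without the filter on dim probes or with the morning slide as a term. They became 0 when only the 2 groups compared were fitted, with array weights, with the follicular covariate, without the 2 arrays apart in the Y-linked probe, without acrylamide female morning replicate 1 and acrylamide male night replicate 4, and without the 4 arrays with a parathyroid mean below 0 (the last 3 chosen after seeing the data). Leaving out single arrays gave 0 to 5 called. The count was 0 without control replicates 2 or 3 or acrylamide replicate 1 of that pair and 5 without acrylamide replicate 4. For the difference by time, leaving out single arrays gave 0 to 3 called. Night against morning in controls went from 4 to 7 with array weights or the follicular covariate, and from 1 to 6 without single arrays (1 without control female night replicate 1 or 2, and 2 without control female morning replicate 3). The share of all probes called with array weights, with the follicular covariate or without single arrays is not given here. These counts therefore do not set the members apart, and the cause was not tested.

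Of 88 member differences, 21 changed sign when single arrays were left out and 23 under some other alternative, and 0 of these were called after it. Those that moved by more than their SE were Gstm1 in night males (-0.28 to 0.043 over single arrays left out, the latter without acrylamide replicate 2) and, with array weights, Gstm2 by sex (0.60), the first Gstm4 probe in night males (0.22) and by sex (0.031) and the second in night males (0.17). Gstp1 in morning females turned with the follicular covariate (0.20). Without the 4 arrays, Gstp1 (0.45), Mgst1 (0.13) and Mgst3 (-0.38) turned in morning females, Gstp1 (-0.083) and Mgst3 (0.15) by time, and Mgst1 in the mean difference (0.17). With the replicate block the morning count stayed at 2 and no member call of an acrylamide comparison changed, while the count over all probes was 326 against 429. That count was 18 with median scaling (9 higher, against 91 of 429), 1059 with quantile normalization (380 higher), 218 with normexp (18 higher) and 111 without the dim filter (21 higher).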
